A study of Saccharomyces cerevisiae with 16 samples.

Results

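The genes described here encode the machinery that makes and removes messenger RNA in budding yeast: 3′ end cleavage and polyadenylation, poly(A) binding, termination, deadenylation, decapping and the nuclear exosome with its TRAMP cofactor. They were given as a list of 44 names, and all 44 were found among the 6002 protein-coding nuclear genes of the RefSeq R64 annotation, RRP44 under its other name DIS3 and TRF4 under its other name PAP2. All libraries came from Saccharomyces cerevisiae strain BY4741, a haploid of mating type a that carries mutations in met15, ura3, leu2 and his3, and the labels name no mutation in a listed gene. Single cells were enclosed in alginate particles, where each grew into a microcolony in rich medium (YPD), and polyadenylated RNA was read with 3′T-fill, which yields 1 sequence tag from the 3′ end of a transcript.

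The libraries compared fell into 6 groups: ethanol-fixed small colonies (small, replicates 2 and 4), ethanol-fixed big colonies (big, 3 libraries), ethanol-fixed particles that were not sorted by size (total, 3 libraries), unsorted particles that had no ethanol fixation (nofix, 2 libraries), and cells of the same strain in batch culture without particles at an absorbance at 600 nm of 2 (YPD2, 2 libraries) or 0.5 (YPD05, 2 libraries). A further 2 small libraries, which the submitters excluded for low quality, were not tested. Replicates are described as biological, but the cultures and days behind them are not given in the sources used here, so p-values measure the spread between these libraries.

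In yeast, a nascent transcript is cut by the cleavage and polyadenylation factor (CPF) together with cleavage factor I, and the poly(A) polymerase Pap1 adds the tail that Nab2 and Pab1 then bind. Short noncoding transcripts end instead through Nrd1, Nab3 and Sen1, and are trimmed or destroyed by the nuclear exosome after TRAMP has added a short tail. In the cytoplasm, Pan2-Pan3 and Ccr4-Not shorten the tail, Dcp1-Dcp2 removes the cap with the help of several activators, and Xrn1 degrades the body from its 5′ end. NRD1 messages are themselves known to be ended early by the Nrd1 pathway in yeast.

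Where a listed gene's own transcripts ended is shown first for the 8 genes on which the 3′ end results turn. Each line gives 30 bases of the R64 genome (RefSeq) on the transcript strand, and the capital marks the base at which the largest average share of that gene's tags lay in the 12 libraries other than small. The first 3 are the genes whose mean 3′ end position passed the test between groups.
NRD1, chrXIV:172497-172526, minus strand: tttctgttttttccTatgttcctttttttt
EDC3, chrV:128324-128353, plus strand: aagcatacggtaagGaagtgggatctgtag
PAP1, chrXI:445000-445029, plus strand: gtacccttttttttGaatcaaagtactttt

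The next 4 are the genes with the largest shares of tags inside the open reading frame (ORF), and the last is the gene whose tags were the most concentrated on 1 base.
MTR4, chrX:342643-342672, plus strand: agaagcatggccttGaagaagaaaaagaag
NAB3, chrXVI:187329-187358, minus strand: acgacgatgatgatGaagaagaagaagaag
SEN1, chrXII:999187-999216, plus strand: ggcagataaagctgTaaagaaaaagaagaa
HRP1, chrXV:89432-89461, plus strand: atccatataataggTaaaaaaaaagaaaag
NAB2, chrVII:278791-278820, minus strand: acatatttagatttTaaaaaaaaaaaaaaa

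The capital base lay 76 nt after the ORF in NRD1, 54 nt after it in EDC3, 76 nt after it in PAP1 and 140 nt after it in NAB2. In MTR4 it was base 136 of the ORF, counted from 1 at the start codon, and in NAB3 base 382. It lay in SEN1 928 nt before the ORF's end and in HRP1 2 nt before the ORF's end. In these last 4 genes and in NAB2 the genome carries an A-rich stretch straight after the capital base, with 8 A in the next 10 bases for MTR4, 7 for NAB3, 8 for SEN1, 9 for HRP1 and 10 for NAB2. A tag before genomic A can come from a poly(A) tail or from an oligo(dT) primer that bound A inside a transcript, and which of the 2 gave these tags was not tested.

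The libraries held 1506960 (total replicate 2) to 7871184 tags (small replicate 4), of which 88.8% to 96.3% fell in the ORF of a gene or in the 400 nt after it. Genes that mark mating type a (MFA1, MFA2, STE2, BAR1 and STE6) had tags in each of the 14 libraries, and MET17, the gene mutated in met15 strains, had 3 tags over all 14. HIS3 had 327 to 2458 tags and URA3 1 to 84 tags in each library, of which 8 of 11748 HIS3 tags and 0 of 645 URA3 tags lay inside the ORF. Of the genes that mark mating type alpha, MF(ALPHA)1 had 137 tags and SAG1 204 in small replicate 4. Elsewhere MF(ALPHA)1 had at most 19 tags, and SAG1 had 124 in small replicate 2 and at most 25 in the rest. LEU2, the gene mutated in leu2 strains, had 519 tags in small replicate 4, against 0 to 7 tags in each of the other 13 libraries. Of its 552 tags over all 14 libraries, 1 lay inside the ORF. Small replicate 4 was barcoded in its own index read and 1 of its labels reads as unfixed, and the correlation of log2 values between the 2 small libraries was 0.53, against 0.867 to 0.945 between replicates of the other groups. Tags on the strand opposite to genes made up 6.16% and 5.26% at isolated genes in nofix libraries, against 1.69% and 1.87% in YPD05 libraries, while total libraries had 1.8% to 2.55% and small replicate 4 had 7.08%. The share of gene tags that lay before 7 or more A in the next 10 genome bases, called A-rich below, was 15.9% to 35.7% and differed within groups, for example 29.4% and 17.0% in the 2 YPD2 libraries.

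Levels are given in CPM, the tags of a gene relative to the TMM-scaled size of its library. A transcript gives 1 tag whatever its length, so levels were not divided by length. Over the 12 libraries other than small, the median of the 44 mean levels was 69.6 CPM, against 39.9 CPM over 5833 genes with a tag. Counted only after the ORF, the medians were 50.3 CPM for the listed genes and 34.2 CPM for all. Between 32 and 44 of the 44 genes had 20 tags or more in a library.

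**Figure D1:**
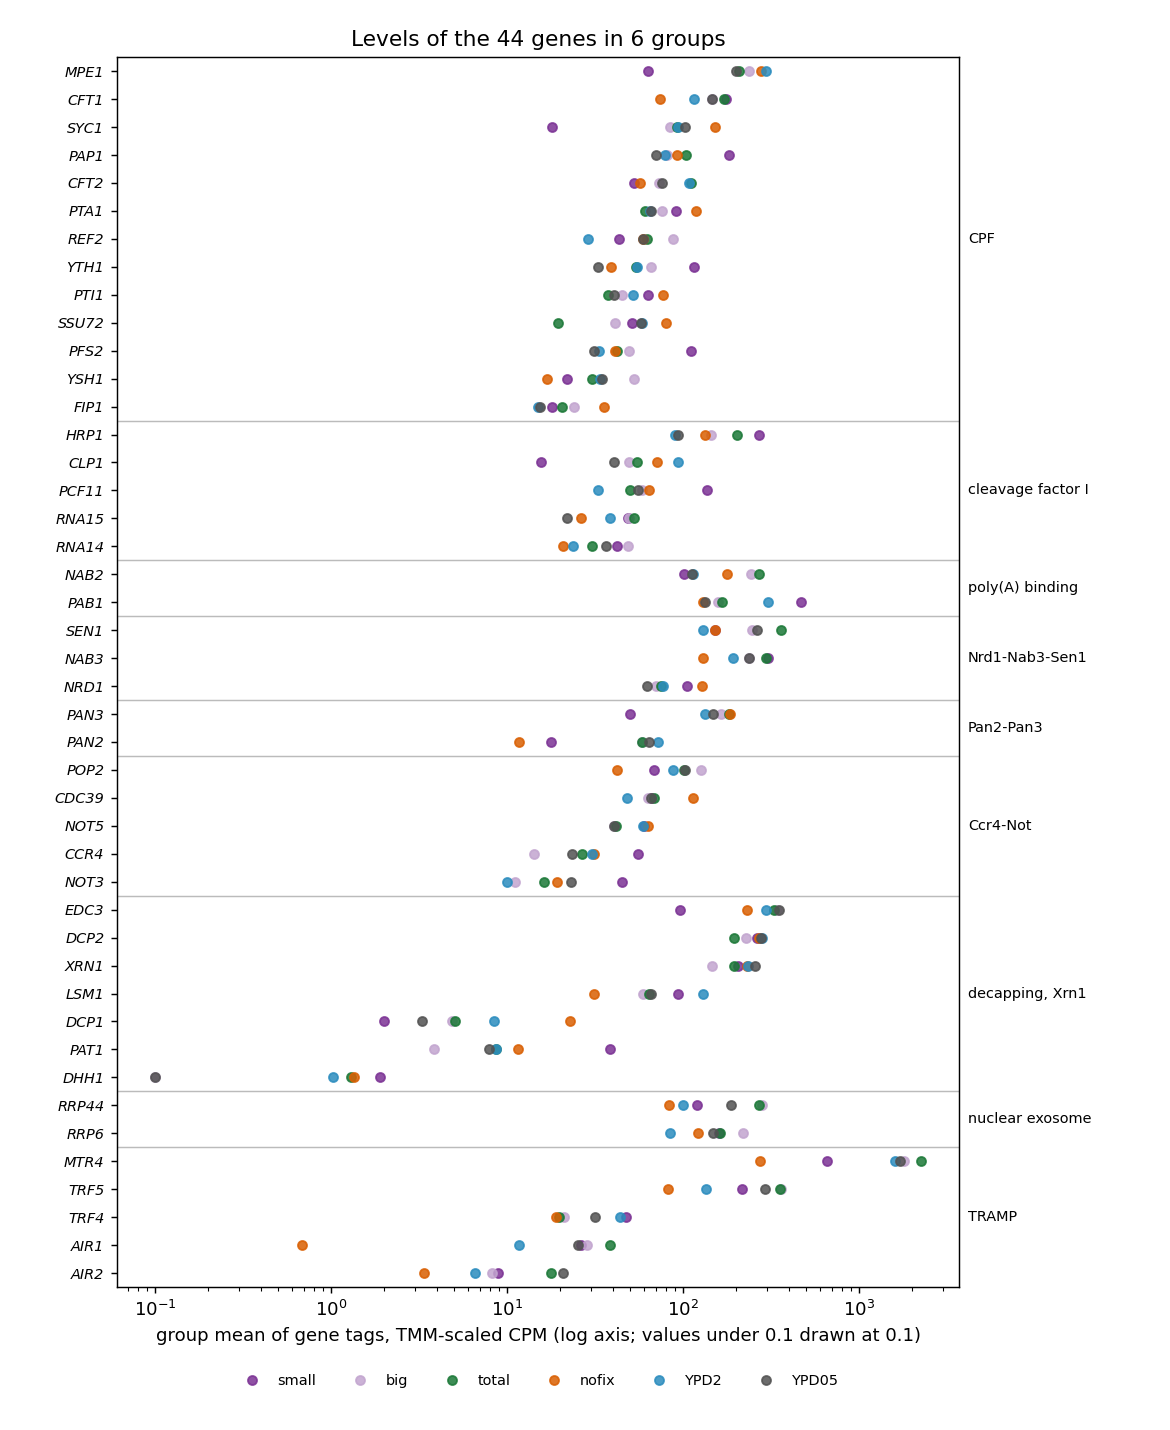
Mean level of each of the 44 genes in the 6 groups, in CPM on a log axis, ordered by complex and by mean level. MTR4 stands highest, with a mean of 1601 CPM over the 12 libraries other than small, and its nofix mean lies apart from the others at 273 CPM; AIR1 in nofix is at 0.677 CPM.

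Among the CPF subunits, the ubiquitin-ligase-like subunit gene MPE1 was the most abundant, with 105 and 21.0 CPM in small, 246, 214 and 248 CPM in big, 220, 161 and 243 CPM in total, 325 and 227 CPM in nofix, 366 and 228 CPM in YPD2 and 204 and 195 CPM in YPD05. Its values in small lay below all the others. The other 12 CPF genes had means over the 12 libraries from 22.0 CPM for FIP1, which tethers the polymerase, to 135 CPM for CFT1, the large scaffold subunit. Between them lay YSH1, the endonuclease that cuts the transcript, at 34.95 CPM, PFS2 at 40.3, SSU72, a phosphatase of the RNA polymerase II tail, at 47.7, PTI1 at 48.7, YTH1 at 50.9, REF2 at 61.9, PTA1 at 75.4, CFT2 at 86.0, PAP1 at 86.2 and SYC1 at 102 CPM.

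The cleavage factor I gene with the highest level was HRP1, whose product binds RNA upstream of the cleavage site. It had 182 and 354 CPM in small, 68.3, 158 and 204 CPM in big, 286, 142 and 178 CPM in total, 132 and 133 CPM in nofix, 84.9 and 95.4 CPM in YPD2 and 92.5 and 94.2 CPM in YPD05. The batch values lay below those of nofix and total, but big replicate 1 lay below all batch values. HRP1 did not pass the level test in any comparison. CLP1 averaged 60.02 CPM, PCF11, which contacts the polymerase tail, 52.4, RNA15, an RNA-binding subunit, 39.8 and its partner RNA14 33.2 CPM. Counted only after the ORF, HRP1 was the lowest of the 5, at 25.5 CPM, against 58.7 for CLP1, 50.05 for PCF11, 39.1 for RNA15 and 26.3 for RNA14. Of the poly(A)-binding genes, NAB2 had 69.0 and 132 CPM in small, 148, 294 and 283 CPM in big, 410, 92.95 and 308 CPM in total, 185 and 171 CPM in nofix, 139 and 87.8 CPM in YPD2 and 124 and 102 CPM in YPD05. PAB1, the cytoplasmic poly(A)-binding protein gene, averaged 175 CPM and ranged from 90.8 to 352 CPM over the 12 libraries.

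In the termination complex, the helicase gene SEN1 had 89.6 and 215 CPM in small, 266, 180 and 287 CPM in big, 224, 505 and 353 CPM in total, 191 and 112 CPM in nofix, 170 and 90.0 CPM in YPD2 and 213 and 311 CPM in YPD05. The RNA-binding partners NAB3 and NRD1 averaged 226 and 80.6 CPM. Counted only after the ORF, SEN1 averaged 19.9 CPM and NAB3 7.80 CPM, so most of their level lay in tags inside the ORF. Of the Pan2-Pan3 deadenylase, PAN3, the regulatory subunit gene, had 14.8 and 84.8 CPM in small, 117, 189 and 186 CPM in big, 166, 127 and 252 CPM in total, 178 and 189 CPM in nofix, 117 and 148 CPM in YPD2 and 159 and 134 CPM in YPD05.

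The most abundant Ccr4-Not gene was POP2, a deadenylase subunit, at a mean of 95.3 CPM, followed by the scaffold gene CDC39 at 70.7, NOT5 at 47.5, the catalytic subunit gene CCR4 at 24.2 and NOT3 at 15.5 CPM. Among decapping genes, the activator EDC3 had 153 and 37.7 CPM in small, 461, 349 and 215 CPM in big, 181, 548 and 254 CPM in total, 239 and 223 CPM in nofix, 300 and 294 CPM in YPD2 and 293 and 409 CPM in YPD05. The catalytic subunit gene DCP2 averaged 243 CPM, whereas its partner DCP1 averaged 8.19 CPM. XRN1 averaged 205 CPM, LSM1 68.6 and PAT1 7.78 CPM. DHH1, a helicase that activates decapping, had 62 tags in the ORF and the 400 nt after it over all 14 libraries, but 543 tags lay beyond 400 and up to 800 nt after its ORF, before the next gene on that strand at 801 nt. The window thus took in few of the tags on this stretch, and DHH1 did not pass the filter on low counts.

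The 2 nuclear exosome genes had mean levels of 200 CPM for RRP44, the catalytic subunit, and 154 CPM for RRP6, the nuclear exonuclease. In TRAMP, the helicase gene MTR4 averaged 1601 CPM, the poly(A) polymerase gene TRF5 263, its paralog TRF4 25.8, and the zinc-knuckle genes AIR1 and AIR2 22.8 and 11.6 CPM. The MTR4 value rests on tags inside the ORF, and counted only after the ORF it was 39.2 CPM.

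The first comparison set encapsulated cells that were not fixed against batch cells at low density. In nofix, the genes AIR1, MTR4 and TRF5 of TRAMP, the deadenylase gene PAN2 and the deadenylase gene POP2 fell relative to YPD05, and no listed gene rose. These 5 of 43 tested genes (11.6%) passed edgeR's quasi-likelihood test at a Benjamini-Hochberg adjusted p under 0.05, against 7.04% of all 5451 tested genes that were lower and 5.38% that were higher. The median log2 fold change was 0.00 over the listed genes and -0.02 over all genes.

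AIR1 had 0.908 and 0.446 CPM in nofix, against 13.6 and 36.6 CPM in YPD05. These nofix values stand for 3 tags in all, against 81 in YPD05, and scaled for library size the YPD05 level was 33.8 times the nofix level (exact 95% interval 11.2 to 167, counting error only). The log2 fold change was -5.11 (SE 1.02, edgeR adjusted p = 0.00461). MTR4 had 265 and 280 CPM in nofix, against 1228 and 2185 CPM in YPD05, a log2 fold change of -2.65 (SE 0.65, edgeR adjusted p = 0.0163). Its tags after the ORF alone were 3.18 and 0.893 CPM in nofix, against 44.1 and 52.0 CPM in YPD05, with a log2 fold change of -4.39 (edgeR adjusted p = 0.00275, within 0.000397 to 0.117 over the 13 alternatives run for MTR4). The 2 measures of MTR4 thus moved the same way. In nofix 576 of 583 and 625 of 628 MTR4 tags lay in the first 200 nt of the ORF, so the nofix values after the ORF rest on few tags.

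TRF5 had 67.2 and 95.5 CPM in nofix, against 232 and 347 CPM in YPD05 (log2 fold change -1.83, SE 0.42, edgeR adjusted p = 0.0104). For PAN2, the catalytic subunit of Pan2-Pan3, the values were 8.17 and 15.2 CPM in nofix, against 70.4 and 57.7 CPM in YPD05 (log2 fold change -2.45, SE 0.49, edgeR adjusted p = 0.00436). Its partner PAN3 had a log2 fold change of 0.32 that did not pass. POP2 had 43.6 and 40.2 CPM in nofix, against 107 and 97.03 CPM in YPD05 (log2 fold change -1.28, SE 0.40, edgeR adjusted p = 0.0486). In TRF5, PAN2 and POP2 the groups did not overlap, but the same values picked these genes, so this adds no support. Tags that are A-rich made up a mean of 84.5% of TRF5 tags and 72.9% of POP2 tags, against 0.104% of PAN2 tags. Without A-rich positions TRF5 had a log2 fold change of -2.23, past the threshold, and POP2 one of -1.45 with an edgeR adjusted p of 0.135. POP2 passed in 2 of its 13 alternatives (adjusted p of 0.0293 to 0.354), and lost its call among others with RLE factors, with no filter on low counts, with only these 2 groups in the fit, with a replicate block and with only tags after the ORF.

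Within TRAMP, the other polymerase gene TRF4 (log2 fold change -0.73) and AIR2 (-2.62) did not pass, so 3 of the 5 TRAMP genes fell. DESeq2 called 6 listed genes and 1002 genes in all, adding AIR2 (log2 fold change -2.58, adjusted p = 0.0316). No gene of CPF, cleavage factor I, poly(A) binding, termination, decapping or the exosome pair passed. With the small libraries added to the fit, 1 listed gene (AIR1) was called, and 107 of 5530 genes in all, against 677 of 5451 in the main fit. Leaving out 1 library left a lone library in its group, assumed to vary like the other groups. All directions held, but MTR4 lost its call without nofix replicate 1 (log2 fold change -2.61), nofix replicate 2 (-2.69) or YPD05 replicate 2 (-2.18), TRF5 without nofix replicate 1 (-1.60) or YPD05 replicate 2 (-1.52), PAN2 without nofix replicate 1 (-2.08), and POP2 without any 1 of the 4 libraries (-1.35 to -1.22).

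**Figure D2:**
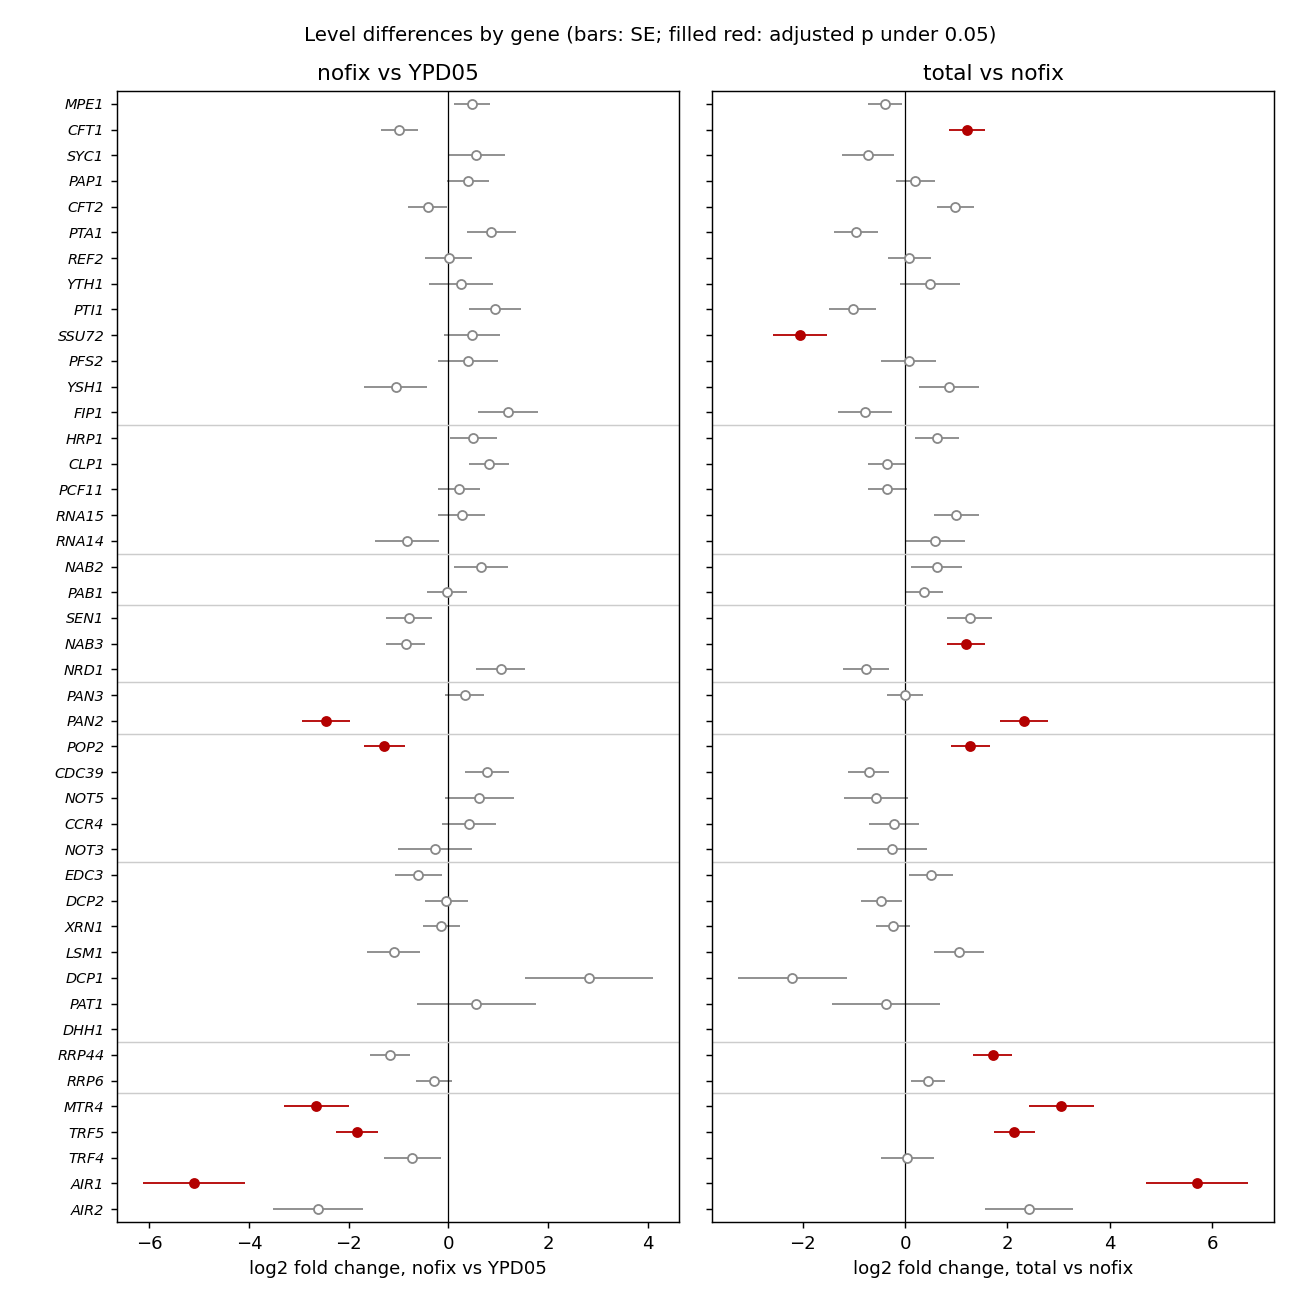
Log2 fold change in level of each tested gene between nofix and YPD05 (left) and between total and nofix (right), with its standard error as a bar; filled red points passed the test. All 5 red points on the left lie below 0, and on the right 8 lie above 0 and 1 (SSU72) below. The nofix libraries are in both panels.

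The second comparison set fixed unsorted particles against the unfixed ones. In total, AIR1, MTR4, TRF5, PAN2, POP2, the exosome nuclease gene RRP44, CFT1 and NAB3 rose relative to nofix, and SSU72 fell. These 8 of 43 genes (18.6%) stand beside 10.5% of all tested genes that were higher, and the 1 lower gene (2.33%) beside 9.58% that were lower. The median log2 fold change was 0.20 over the listed genes and 0.03 over all genes. The nofix libraries are shared with the first comparison, so a gene that is low in them is low in 1 comparison and high in the other.

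In total libraries AIR1 had 12.6, 71.2 and 30.5 CPM, against 0.908 and 0.446 CPM in nofix (log2 fold change 5.70, SE 1.00, edgeR adjusted p = 0.00108). The total level was 38.0 times the nofix level by pooled tags (exact 95% interval 12.8 to 186, counting error only). MTR4 reached 1547, 2485 and 2701 CPM in total, against 265 and 280 CPM in nofix (log2 fold change 3.05, SE 0.63, edgeR adjusted p = 0.00354). TRF5 had 454, 316 and 296 CPM in total, against 67.2 and 95.5 CPM in nofix (log2 fold change 2.14, SE 0.40, edgeR adjusted p = 0.00161). For all 3 TRAMP genes, every total library lay above both nofix libraries, but the same values picked these genes, so this adds no support.

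PAN2 had 57.1, 62.5 and 55.4 CPM in total, against 8.17 and 15.2 CPM in nofix (log2 fold change 2.32, SE 0.46, edgeR adjusted p = 0.00244). POP2 had 85.8, 130 and 86.5 CPM in total, against 43.6 and 40.2 CPM in nofix (log2 fold change 1.27, SE 0.38, edgeR adjusted p = 0.0269). RRP44 had 247, 299 and 265 CPM in total, against 104 and 62.9 CPM in nofix (log2 fold change 1.71, SE 0.38, edgeR adjusted p = 0.00574). The other exosome gene, RRP6, had a log2 fold change of 0.44 that did not pass.

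CFT1 had 204, 125 and 179 CPM in total, against 68.1 and 79.9 CPM in nofix (log2 fold change 1.21, SE 0.35, edgeR adjusted p = 0.0233). SSU72 went the other way, with 13.4, 23.5 and 21.1 CPM in total, against 60.8 and 98.7 CPM in nofix (log2 fold change -2.06, SE 0.52, edgeR adjusted p = 0.0121). The remaining 11 CPF genes did not pass. NAB3 had 260, 338 and 287 CPM in total, against 130 and 129 CPM in nofix (log2 fold change 1.19, SE 0.37, edgeR adjusted p = 0.0355). This NAB3 value describes tags inside the ORF: with only tags after the ORF its log2 fold change was -0.44 (edgeR adjusted p = 0.808), and without A-rich positions 0.86 (edgeR adjusted p = 0.226), within adjusted p of 0.017 to 0.808 over its 14 alternatives. DESeq2 called 12 listed genes and 1304 in all, adding AIR2 (log2 fold change 2.40, adjusted p = 0.0234), CFT2 (0.96, adjusted p = 0.0427) and SEN1 (1.24, adjusted p = 0.0285). The count of 9 listed genes was 3 with the small libraries added to the fit. Over all genes, 323 of 5530 were then called, against 1093 of 5451 in the main fit. With 1 library left out, the call was lost for RRP44 (log2 fold change 1.38) and SSU72 (-1.68) without nofix replicate 2, for POP2 without either nofix library or total replicate 2 (1.04 to 1.32), for CFT1 without either nofix library, total replicate 1 or total replicate 3 (1.04 to 1.31), and for NAB3 without either nofix library, total replicate 2 or total replicate 3 (1.07 to 1.21).

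**Figure D3:**
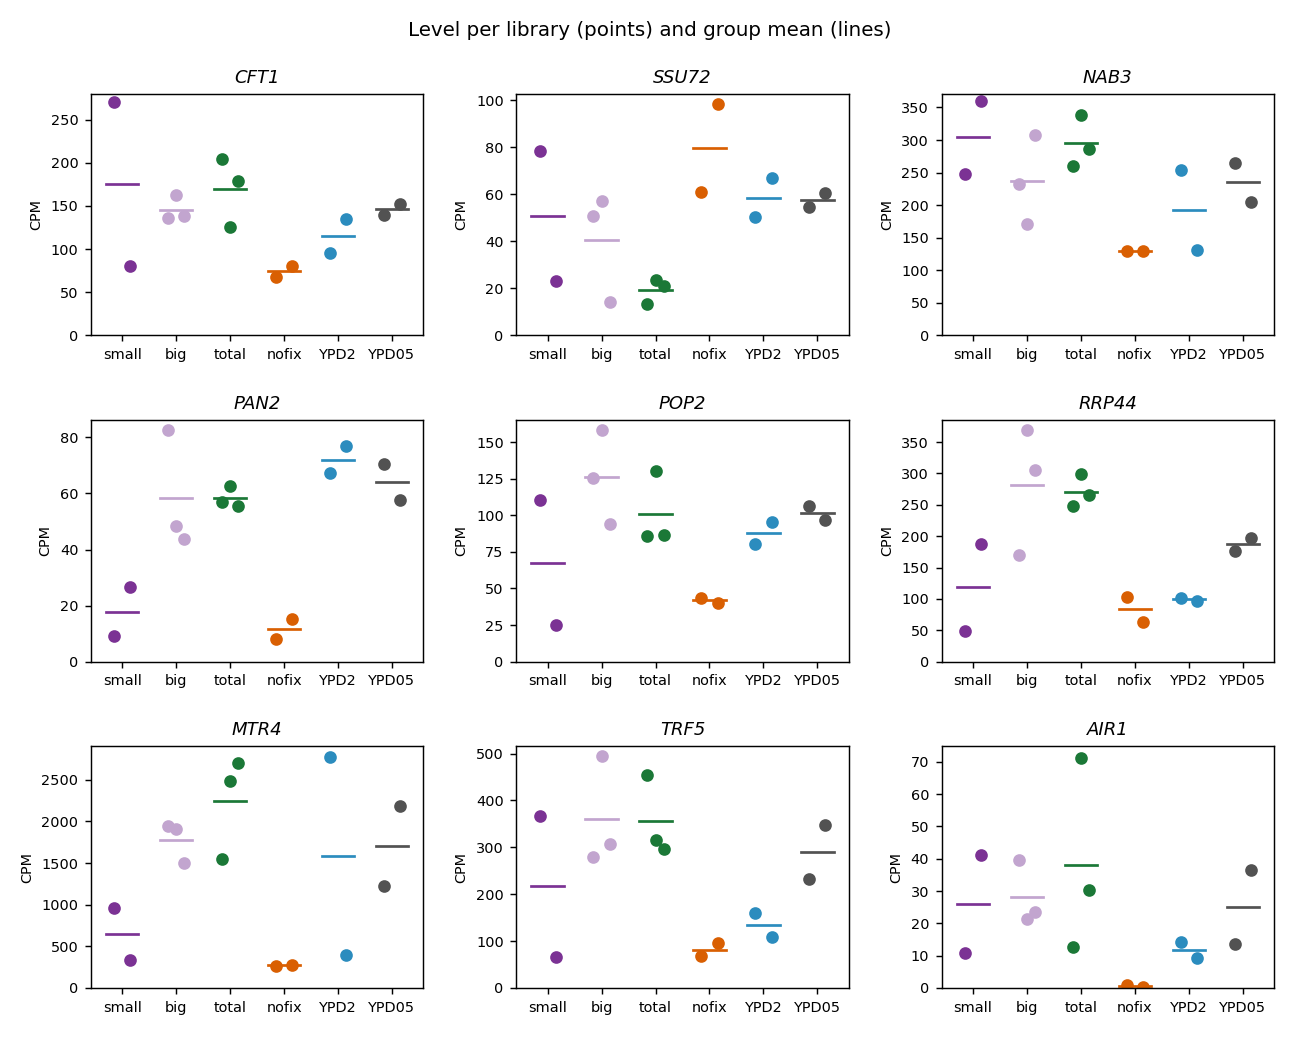
Level of the 9 genes that passed the level test, in CPM, with 1 point per library and the group mean as a line, for the 6 groups. In 8 panels both nofix points lie below all total and all YPD05 points, and in the SSU72 panel they lie above all total points. The genes were picked by the test on these same values. The 2 YPD2 points of MTR4 lie far apart, at 2777 and 398 CPM.

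The A-rich share of a whole library and its MTR4 level were lowest in the same libraries, but did not keep 1 order within every group. In big, the MTR4 levels were 1947, 1906 and 1495 CPM and the A-rich shares 24.7%, 23.7% and 28.4%. In total they were 1547, 2485 and 2701 CPM at 22.6%, 35.7% and 33.2%, and in nofix 265 and 280 CPM at 22.3% and 18.6%. In YPD2 they were 2777 and 398 CPM at 29.4% and 17.0%, and in YPD05 1228 and 2185 CPM at 21.5% and 28.5%. The library with the higher share thus had the higher level in both batch groups. In total the lowest share and the lowest level fell in the same library. In nofix the library with the higher share had the lower level, but both levels were close. The lowest levels of the 12 libraries, 265, 280, 398 and 1228 CPM, were at the lowest shares, 22.3%, 18.6%, 17.0% and 21.5%. Whether the share of a library bears on its MTR4 level was not tested. Without A-rich positions MTR4 had log2 fold changes of -2.46 between nofix and YPD05 and 3.08 between total and nofix, both past the threshold. A-rich positions held a mean of 58.4% of MTR4 tags, while a mean of 95.9% lay within 10 nt of the main site. Tags beside the same A-rich stretch thus stayed in, and whether priming there gave them was not tested.

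The comparison of YPD2 with YPD05 called no listed gene, and edgeR called 0% of all 5451 genes. At an unadjusted p under 0.05 it had 7 listed genes and 541 genes in all, and DESeq2 called 0 listed genes and 104 genes in all. PAB1 had 352 and 252 CPM in YPD2, against 124 and 141 CPM in YPD05 (log2 fold change 1.20, SE 0.41, edgeR adjusted p = 0.278). RRP44 had 102 and 96.5 CPM in YPD2, against 177 and 197 CPM in YPD05 (log2 fold change -0.91, SE 0.40, edgeR adjusted p = 0.465). TRF5 had 159 and 108 CPM in YPD2, against 232 and 347 CPM in YPD05 (log2 fold change -1.11, SE 0.41, edgeR adjusted p = 0.327). These 3 differences did not pass the threshold.

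Between big colonies and unsorted particles edgeR likewise called 0 listed genes and 0% of all genes. At an unadjusted p under 0.05 it had 1 listed gene and 190 genes in all, and DESeq2 had 2 listed genes at that level and called none after adjustment. The 1 gene was SSU72, with 51.0, 57.4 and 14.01 CPM in big, against 13.4, 23.5 and 21.1 CPM in total (log2 fold change 1.09, SE 0.48), and its groups overlapped. The 43 log2 fold changes lay between -1.20 and 1.09.

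Small colonies against big colonies gave 0 called listed genes, against 1.27% of 5530 genes tested. At an unadjusted p under 0.05 edgeR had 10 listed genes and 1115 in all. DESeq2 called 3 listed genes and 612 in all: CCR4 (log2 fold change 2.16, adjusted p = 0.00654) and PAB1 (1.76, adjusted p = 0.00988) higher and MPE1 (-1.77, adjusted p = 0.0258) lower in small. CCR4 had 39.97 and 69.9 CPM in small, against 18.0, 12.5 and 11.96 CPM in big. PAB1 had 295 and 633 CPM in small, against 172, 187 and 114 CPM in big. Both were higher in each small library than in any big one, in genes picked by DESeq2 on the same libraries. PAN2 had 9.03 and 26.5 CPM in small, against 82.5, 48.4 and 43.7 CPM in big, and did not pass in either test (edgeR log2 fold change -1.68, adjusted p = 0.151).

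The 2 small libraries differed widely in the listed genes, for example PAT1 with 0 and 76.4 CPM, NOT3 with 0 and 89.2 CPM and CFT1 with 270 and 80.3 CPM in replicates 2 and 4. The median of all log2 fold changes between small and big was 0.17 with TMM scaling and 0.35 with DESeq2's size factors. Without small replicate 2 the test called 13 of 44 listed genes and 1665 of 5684 genes in all, and without small replicate 4 it called 12 of 43 and 1985 of 5603, with the lone small library assumed to vary like the other groups.

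Genes of the same pathways that are not on the list of 44 were described from a list of 47. Between nofix and YPD05, 2 rose and 2 fell, against 5.38% and 7.04% of all tested genes. DCS2, a regulator of the scavenger decapping enzyme, had 492 and 451 CPM in nofix, against 15.03 and 8.44 CPM in YPD05 (log2 fold change 5.30, SE 0.94, edgeR adjusted p = 0.00261). EDC2, an activator of decapping, had 380 and 305 CPM in nofix, against 30.5 and 68.2 CPM in YPD05 (log2 fold change 2.80, edgeR adjusted p = 0.00647). RRP45, a subunit of the exosome ring, had 4.99 and 16.5 CPM in nofix, against 80.8 and 93.5 CPM in YPD05 (log2 fold change -3.01, edgeR adjusted p = 0.00191). LRP1, a cofactor of Rrp6, had a log2 fold change of -1.86 (edgeR adjusted p = 0.0407). The exosome core and cofactor list of 11 genes held both lower genes, with 9 not passing and a median log2 fold change of -1.35, against -0.02 over all genes.

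Between total and nofix, 6 of the 47 rose and 4 fell, against 10.5% and 9.58% of all tested genes, so neither count stood far from that of all genes. RRP45 (log2 fold change 3.11), CSL4 (2.55), a cap subunit of the exosome, and LRP1 (2.53) had the largest rises, and 5 of the 11 exosome core and cofactor genes rose, with a median of 1.14. DCS2 (-5.55), NAM7 (-3.46), the helicase of nonsense-mediated decay known as Upf1, and MOT2 (-2.34), the ubiquitin ligase of Ccr4-Not, had the largest falls. Tags of CSL4 and LRP1 lay partly inside the ORF, at mean shares of 90.0% and 44.6%, and A-rich tags made up 82.9% and 40.4%. No gene of the 47 was called in the other 3 comparisons.

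The 3′ ends of the listed genes were then compared by the mean distance of tags from the end of the ORF, with limma, in the 25 listed genes with 50 or more tags in every library of the fit. Between nofix and YPD05, the ends of NRD1 and EDC3 lay further upstream in nofix, and no listed gene's ends lay further downstream. These 2 of 25 genes (8%) stand beside 4.39% of 2096 genes whose ends lay further upstream and 0.429% whose ends lay further downstream.

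For NRD1 the mean tag lay 611 and 654 nt before the ORF's end in nofix (mean distances of -611 and -654 nt), against 10.4 and 54.2 nt before it in YPD05 (-10.4 and -54.2 nt), a difference of -608 nt (SE 64, limma adjusted p = 0.00119). The main site did not change. The median tag lay 75 and 75 nt after the ORF in nofix, against 76 and 76 nt in YPD05. What differed was a minority of tags inside the ORF, which made up 40.7% and 46.7% of NRD1 tags in nofix, against 5.88% and 9.46% in YPD05. Most of these lay in the first 300 nt of the ORF, with 35.3% and 35.1% of NRD1 tags in nofix, against 3.27% and 6.76% in YPD05. The upstream neighbour RAD50 lies on the other strand, 1094 nt away.

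In EDC3, the mean tag lay at -25.2 and -68.1 nt in nofix, against 66.0 and 71.8 nt in YPD05, a difference of -116 nt (SE 13.4, limma adjusted p = 0.0018). The median tag lay 54 nt after the ORF in all 4 of these libraries. Inside the ORF lay 6.64% and 9.40% of its tags in nofix, against 0.16% and 0% in YPD05, where 0 of 582 tags were seen in replicate 2. Most of them lay in the first 300 nt of the ORF, with 5.69% and 8% of EDC3 tags in nofix. The upstream neighbour NPP2 also lies on the other strand.

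Between total and nofix, the ends of NRD1, EDC3 and PAP1 lay further downstream in total. These 3 of 25 genes (12%) stand beside 5.58% of 2096 genes whose ends lay further downstream and 0.668% whose ends lay further upstream. NRD1 had means of 39.2, 51.4 and -102 nt in total, against -611 and -654 nt in nofix (difference 621 nt, SE 53.1, limma adjusted p = 0.000305). EDC3 had means of 79.5, 69.8 and 73.8 nt in total, against -25.2 and -68.1 nt in nofix (difference 121 nt, SE 12.3, limma adjusted p = 0.000675). PAP1 had means of 42.5, 68.5 and 14.7 nt in total, against -164 and -103 nt in nofix (difference 168 nt, SE 32.2, limma adjusted p = 0.02). The groups did not overlap in any of the 3, but the same values picked these genes, so this adds no support.

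PAP1 tags inside the ORF made up 4.46%, 2.38% and 7.77% in total, against 13.7% and 10.6% in nofix, and in nofix 13.2% and 10.6% of tags lay in the first 300 nt. The PAP1 call was lost without nofix replicate 1 (difference 139 nt), total replicate 1 (164 nt) or total replicate 2 (162 nt). Against YPD05, the PAP1 difference of nofix was -152 nt and did not pass (limma adjusted p = 0.0769). All 3 genes lost these calls when only tags after the ORF were used, with differences of 3.41 nt for EDC3 and 6.29 nt for NRD1 between nofix and YPD05. The share of tags inside the ORF, tested on the log2 odds scale, passed for EDC3 between total and nofix (-5.20, SE 1.14, limma adjusted p = 0.029), for 1 of 25 listed genes (4.00%) against 5.10% of 2096 genes. EDC3 was not called on this measure without total replicate 1, without total replicate 3 or without either nofix replicate (-5.72 to -4.30).

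**Figure D4:**
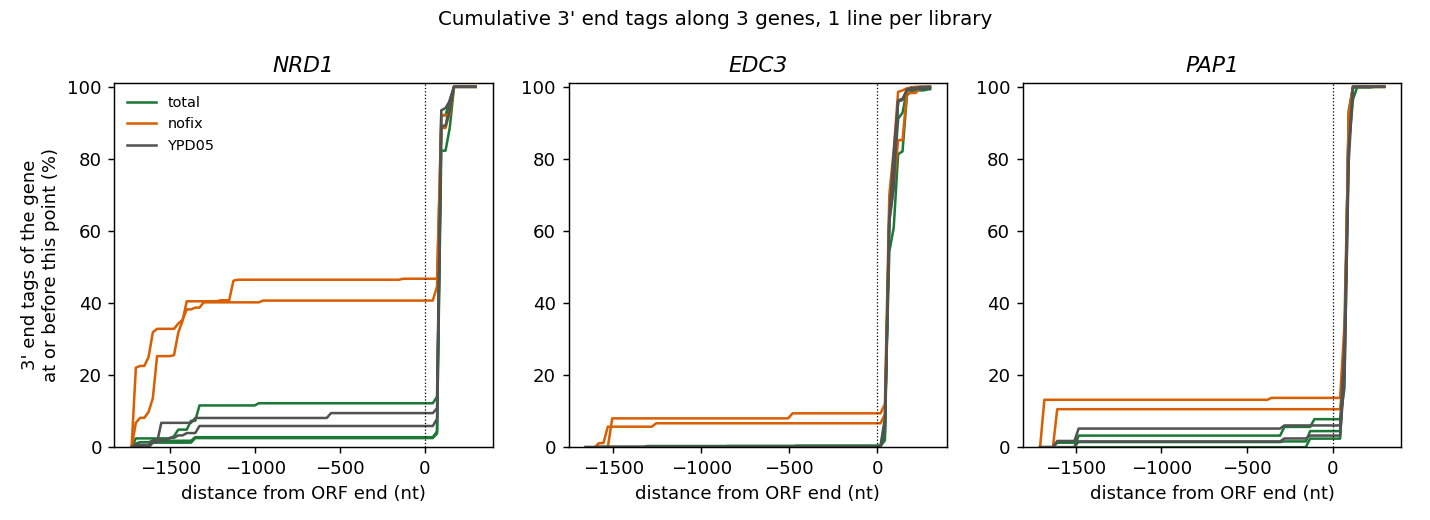
Cumulative share of each gene's 3′ end tags against distance from the end of the ORF in nt (dotted line at 0), for NRD1, EDC3 and PAP1, with 1 line per library of total, nofix and YPD05. The nofix lines climb near the start of the ORF, to 40.7% and 46.7% of NRD1 tags before the ORF's end, and all lines reach 100% shortly after it.

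Tags on the strand opposite to genes were also more frequent in nofix than in YPD05 or total, as given above, and the part of such tags in these end positions was not tested. Tags inside the ORF over all genes made up 13.3% and 10.8% in nofix, against 10.8% and 18.0% in YPD05 and 12.5%, 26.5% and 22.7% in total, so the summed share was not higher in nofix. Gene by gene the share leaned the other way. Between nofix and YPD05 its median difference in log2 odds was 0.41 over all 2096 genes and 1.08 over the listed genes, with 10 genes called higher and 0 lower. Between total and nofix the medians were -0.55 and -1.17, with 12 genes called higher and 95 lower. No listed gene's position passed between YPD2 and YPD05 (0.334% of all genes called), between big and total (0%) or between small and big (1.42% of 1760 genes, 20 listed genes tested). At an unadjusted p under 0.05, limma had 3, 1 and 4 listed genes in these 3 comparisons, and 315, 25 and 269 genes in all. With 1 nofix library left out, the lone nofix library was assumed to vary like the other groups, so only sizes are given. The median difference of listed genes between nofix and YPD05 was -31.7 nt without nofix replicate 1 and -30.0 nt without nofix replicate 2, against -50.2 nt with both. Between total and nofix it was 10.6 and 27.6 nt, against 26.7 nt with both.

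The share inside the ORF passed for no listed gene between nofix and YPD05 (0.477% of all genes called), YPD2 and YPD05 (0%), big and total (0%) or small and big (0.227%). At an unadjusted p under 0.05, limma had 1, 0, 0 and 3 listed genes, and 309, 133, 66 and 246 genes in all. For EDC3 between nofix and YPD05 the difference was 5.92 on the log2 odds scale (limma adjusted p = 0.0516).

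Some listed genes had most of their tags inside the ORF in nearly every library. In the first 200 nt of the MTR4 ORF lay 96.9% and 7.21% of its tags in small replicates 2 and 4, and 95.4% to 99.5% in each of the other 12 libraries. Small replicate 4 was thus the 1 library in which most MTR4 tags lay elsewhere. Averaged over the 12 libraries other than small, tags inside the ORF made up 97.6% of the total for MTR4, 95.8% for NAB3, 90.5% for SEN1, 80.6% for HRP1, 74.6% for DCP1, 53.7% for TRF4, 48.9% for SYC1 and 42.4% for AIR2. The upstream neighbours of MTR4 (IRC8, 266 nt away), NAB3 (COA2, 581 nt) and SEN1 (CRN1, 701 nt) lie on the same strand, and that of HRP1 (TRM11) on the other.

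**Figure D5:**
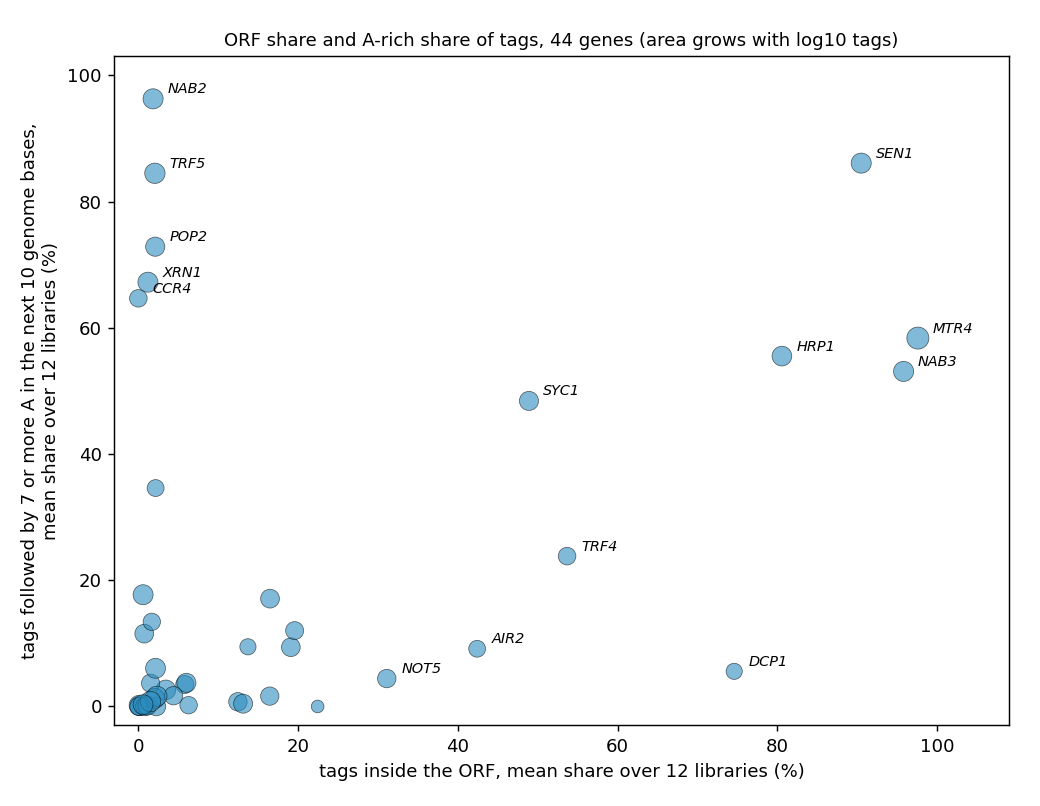
Share of tags inside the ORF (horizontal) against share of A-rich tags (vertical) for each of the 44 genes, both as means over the 12 libraries other than small, with point area growing with the log10 of tags. MTR4, NAB3, SEN1 and HRP1 lie to the right with A-rich shares of 53.1% to 86.1%. DCP1, with 74.6% of tags inside the ORF, and TRF4, with 53.7%, had lower A-rich shares of 5.57% and 23.8%. NAB2, at 96.3% A-rich, and TRF5 lie at the upper left with nearly all tags after the ORF.

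TRF4 and AIR2 had too few tags for the position test, and their ends differed between libraries. The first 300 nt of the TRF4 ORF held 44 of 54 and 19 of 30 tags in nofix (81.5% and 63.3%). In YPD2 it held 124 of 165 and 77 of 106 (75.2% and 72.6%), and in YPD05 18 of 56 and 24 of 52 (32.1% and 46.2%). In total it held 19 of 76, 10 of 31 and 9 of 50 (25%, 32.3% and 18.0%), and in small replicates 2 and 4 33 of 33 and 73 of 741. For AIR2 the same stretch held 8 of 9 and 2 of 6 tags in nofix and 18 of 21 and 13 of 21 tags in YPD2, against 0 of 69 and 0 of 13 tags in YPD05. The gene upstream of AIR2 on the same strand, DLD1, 307 nt away, averaged 68.1 CPM in nofix, 23.3 CPM in YPD2 and 15.6 CPM in YPD05, and whether tags of DLD1 transcripts were counted for AIR2 was not tested. Upstream of TRF4 on its strand, MSN1, 517 nt away, averaged 82.2 CPM in nofix, 40.7 CPM in YPD2 and 47.6 CPM in YPD05. Whether its tags were counted for TRF4 was not tested either.

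The sites themselves were compared with those of all genes with 50 or more tags in every one of the 12 libraries. The largest site lay inside the ORF in 5 of 25 listed genes, against 8.06% of 2096 genes. It lay before 7 or more A in the next 10 bases in 9 of 25 (36.0%), against 20.7% of all. The hexamer TATATA, known in yeast as an efficiency element of polyadenylation, lay in the 60 nt up to the site on the transcript strand in 8 of 25 (32.0%), against 32.5% of all, among them NRD1 at 16 nt before the site. The hexamer AATAAA was in 0 of 25 windows, against 14.1% of all. These letters were searched on the transcript strand only, and a match or its absence describes the window and no more.

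How sharply a gene's transcripts ended also varied. At the largest site lay 94.9% of NAB2 tags, 73.2% of PAN2 tags, 72.7% of POP2 tags and 71.9% of TRF5 tags, as means of the shares in the 12 libraries. At the other end, the largest site held 9.24% of PTI1 tags and 12.6% of LSM1 tags. EDC3, with 43.1% at its largest site, and PAP1, with 51.1%, lay between. In the next 10 bases the genome held 10 A in NAB2, 10 in POP2 and 7 in TRF5, against 4 in PAN2, 6 in PTI1 and 3 in LSM1. Whether such A runs bear on the share at 1 base was not tested.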

How the data were processed

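3′ end tags of 16 libraries were deposited by the authors as raw counts at 542908 stranded genome positions, without normalization. CASAVA 1.8.2, GSNAP and the builds R64 and sacCer3 are named in the submitters' processing notes; their roles and any duplicate removal are not given in the sources used here. The table's strand was turned, since tags at 2406 isolated genes lay on the opposite one. Counts were summed per gene over the ORF and up to 400 nt after it, stopping at the next gene on that strand (R64, RefSeq), where at most 0.0110% of tags were ambiguous. Depth is 1506960 to 7871184 tags per tested library. No molecular identifiers are described, so intervals cover counting error only.

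Levels were tested with edgeR 4.0.16 (quasi-likelihood, TMM, filterByExpr) in 1 fit of the 12 libraries other than small, and small against big in a fit of 14. The standard error is the log2 fold change over the square root of F. Positions and ORF shares (log2 odds, pseudocount 0.5) were tested with limma 3.58.1 in genes with at least 50 tags in each library, weighted by tags up to 200. P-values were adjusted over all genes tested, with a threshold of 0.05. DESeq2 1.42.0, R 4.3.3, Python 3.11.15, pandas 2.3.3, numpy 2.4.6, scipy 1.17.1 and matplotlib 3.10.9 were also used. Only the edgeR level fit and the limma position fit, each for nofix against YPD05, were tried on simulated data. Alternatives were other scaling, filters, windows, tags after the ORF only, no A-rich positions and left-out libraries. Using only tags after the ORF, leaving out A-rich positions and a crossed pairing of replicates were added after the data were seen.

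Members and lists were chosen with earlier results of these data known. Values in every library of the groups compared are given for listed genes past the threshold on level or 3′ end position in the main tests. Values in all groups are given for MPE1, HRP1, NAB2, SEN1, PAN3 and EDC3, each the most abundant gene of its complex. Up to 3 other pathway genes per direction and comparison were named, some with log2 fold changes only. Other genes, such as TRF4 and AIR2 ends and the contrasts that did not pass, were named after their values were seen. Replicate numbers shared between groups did not pair the libraries. Small replicates 1 and 3 were not tested.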

Additional observations from a re-analysis of the deposited data

How the results depend on the processing

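Of 255 estimates for the listed genes called on level, position or ORF share, recomputed under each alternative, 195 kept direction and call, 56 kept direction and lost the call, and 4 changed sign; AIR1 kept its call under all alternatives run in both comparisons, as did MTR4 and PAN2 between total and nofix. The 4 sign changes came from using only tags after the ORF, added after the data were seen: NAB3 level, total against nofix, -0.44; EDC3 position 3.41 nt and NRD1 position 6.29 nt, nofix against YPD05; and NRD1 position -4.34 nt, total against nofix. Under that setting position calls numbered 0 between nofix and YPD05, 0 between total and nofix and 1 between YPD2 and YPD05, of 19 listed genes. Of all 1880 genes tested, 2, 5 and 65 were called. With all 14 libraries in the fit, level calls were 1 between nofix and YPD05 (107 of 5530 genes in all) and 3 between total and nofix (323 of 5530). DESeq2 called 3 between small and big (612 of 5530). A pseudocount of 2 gave 1 ORF-share call between nofix and YPD05 (56 of 2096 genes in all) and 2 between total and nofix (142 of 2096). Leaving out A-rich positions gave 1 between nofix and YPD05 (26 of 1748). The causes were not tested. With 1 library left out in turn, level calls ranged from 1 to 4 (nofix against YPD05), 4 to 9 (total against nofix) and 0 to 13 (small against big); position calls from 2 to 7 (nofix against YPD05), 0 to 4 (YPD2 against YPD05), 2 to 6 (total against nofix) and 0 to 6 (small against big); and ORF-share calls from 0 to 1 (total against nofix) and 0 to 3 (small against big). Same-numbered libraries did not deviate together, with correlations of -0.17 to 0.19, so the numbers were not taken as pairs. With a replicate block level calls were 4 between nofix and YPD05 (599 of 5451 genes in all), without POP2. Between total and nofix they were 6 (844 of 5451), without CFT1, NAB3 and SSU72, and the ORF-share call became 0 (59 of 2096). A crossed pairing of YPD2 with YPD05, whose same-numbered libraries had a correlation of -0.16, gave 0 listed genes and 7 genes in all. No paired analysis was possible for small against big because they share only replicate number 2. Depth limits the values of genes with few tags, such as DCP1 and PAT1; the tags of DHH1 lay mostly beyond the 400 nt window.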

Other observations

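The 2 small libraries that the submitters excluded held 11821 (replicate 1) and 839550 tags (replicate 3). In replicate 1, 49 tags fell on listed genes, and 22 of the 44 genes had a tag. In replicate 3, 3517 tags fell on listed genes, and 33 of the 44 genes had a tag, led by NAB2 with 666 tags, POP2 with 401, CFT2 with 391 and NOT5 with 299. MTR4 had 223 tags there.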
